A study of Mus musculus with 37 samples.

Results

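The 10 genes described here carry glucose into the cell and through glycolysis: the glucose transporters Slc2a1 and Slc2a3, the hexokinases Hk2 and Hk3, the bifunctional enzymes Pfkfb3 and Pfkfb4, the lower glycolytic enzymes Pgk1, Eno1 and Pkm, and the lactate dehydrogenase gene Ldha. They were taken by gene symbol from the 35885 genes in the deposited table. The choice was made with earlier results of these data known. Poly(A) RNA from femur marrow and spleen of wild-type C57BL/6N mice was sequenced in 37 libraries, 19 from marrow and 18 from spleen. Mice were subjected to social defeat by an aggressor 1, 4 or 10 times at 1 defeat per day, or received 10 defeats followed by 1 week of rest, and control mice were not defeated. Marrow was represented by 3 control libraries, 4 libraries after 1 defeat, 3 after 4 defeats, 5 after 10 defeats and 4 after rest. Spleen was represented by 4 control libraries, 2 after 1 defeat, 2 after 4 defeats, 6 after 10 defeats and 4 after rest. Sex and age of the mice, and whether marrow and spleen libraries with the same code came from the same mouse, are not given in the sources used here. Libraries are named below by the codes of the labels, C for controls and D for defeated mice. Since whole marrow and whole spleen were used, fewer cells of a type and less RNA per cell cannot be told apart in any comparison.

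Glycolysis breaks glucose down to pyruvate and makes ATP without oxygen, and lactate dehydrogenase then turns pyruvate into lactate so that the pathway can go on. Glucose enters through the GLUT transporters, is trapped as glucose 6-phosphate by hexokinase, and passes the committed step at phosphofructokinase, whose activator fructose 2,6-bisphosphate is made and broken down by the PFKFB enzymes. Neutrophils hold few mitochondria and are known to depend on glycolysis, while mature red cells, which have no mitochondria, depend on it wholly. Many genes of the pathway are classical targets of the hypoxia-inducible factors (HIF), which bind DNA at the core ACGTG or GCGTG.

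Promoter windows of 7 members are shown as examples, chosen with the matches known, since results below turn on these genes: Hk2, Pgk1, Pkm, Eno1 and Ldha had the largest rises in marrow and were called lower again after rest, Hk3 rose there without a call for a fall after rest, and Slc2a1 rose in marrow and fell in spleen. Every window in the table is shown for these genes, except that Eno1 has 2 more, overlapping each other and also without the letters marked. Each window runs from 250 bases before to 50 bases after a RefSeq transcript start of GRCm38.p6, is written 5′ to 3′ along the gene, and has every ACGTG on either strand in capitals, so that CACGT marks a match on the opposite strand. The palindrome CACGTG, the E-box core bound by MYC, USF and clock factors, counts as a match on both strands.
Slc2a1 (chr4:119108495-119108794, plus strand): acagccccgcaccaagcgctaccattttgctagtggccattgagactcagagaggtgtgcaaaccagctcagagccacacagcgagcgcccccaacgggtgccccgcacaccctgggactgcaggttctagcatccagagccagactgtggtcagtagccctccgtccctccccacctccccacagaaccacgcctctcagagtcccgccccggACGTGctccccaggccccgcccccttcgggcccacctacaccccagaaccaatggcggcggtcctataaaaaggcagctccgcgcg
Hk2 (chr6:82774405-82774704, minus strand): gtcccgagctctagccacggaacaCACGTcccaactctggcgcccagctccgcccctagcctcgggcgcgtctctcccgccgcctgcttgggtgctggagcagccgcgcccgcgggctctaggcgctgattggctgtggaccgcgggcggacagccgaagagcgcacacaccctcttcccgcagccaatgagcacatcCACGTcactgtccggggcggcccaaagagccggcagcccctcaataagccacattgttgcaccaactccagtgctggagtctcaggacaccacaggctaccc
Hk3 (chr13:55021336-55021635, minus strand): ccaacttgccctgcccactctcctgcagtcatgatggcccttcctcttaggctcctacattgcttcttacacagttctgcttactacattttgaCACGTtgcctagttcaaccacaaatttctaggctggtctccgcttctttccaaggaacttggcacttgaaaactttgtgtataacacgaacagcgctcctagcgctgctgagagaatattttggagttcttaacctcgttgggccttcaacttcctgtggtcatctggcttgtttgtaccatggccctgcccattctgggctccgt
Pgk1 (chrX:106186850-106187149, plus strand): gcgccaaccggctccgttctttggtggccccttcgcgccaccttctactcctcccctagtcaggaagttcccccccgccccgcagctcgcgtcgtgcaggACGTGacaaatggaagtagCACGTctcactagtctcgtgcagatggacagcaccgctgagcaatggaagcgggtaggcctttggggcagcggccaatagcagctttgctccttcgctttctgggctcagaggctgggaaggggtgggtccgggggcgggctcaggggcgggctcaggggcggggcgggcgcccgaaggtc
Ldha (chr7:46845554-46845853, plus strand): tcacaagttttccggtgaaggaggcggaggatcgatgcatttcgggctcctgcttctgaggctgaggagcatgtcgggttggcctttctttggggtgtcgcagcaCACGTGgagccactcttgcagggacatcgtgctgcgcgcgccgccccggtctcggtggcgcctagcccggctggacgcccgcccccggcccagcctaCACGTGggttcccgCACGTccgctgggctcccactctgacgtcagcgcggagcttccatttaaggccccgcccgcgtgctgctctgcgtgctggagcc
Ldha (chr7:46846832-46847131, plus strand): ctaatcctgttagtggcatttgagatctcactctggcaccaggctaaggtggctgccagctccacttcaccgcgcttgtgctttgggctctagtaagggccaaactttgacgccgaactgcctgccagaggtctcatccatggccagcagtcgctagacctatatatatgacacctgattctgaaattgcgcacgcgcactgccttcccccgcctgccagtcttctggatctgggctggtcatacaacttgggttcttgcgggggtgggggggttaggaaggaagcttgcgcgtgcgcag
Eno1 (chr4:150236458-150236757, plus strand): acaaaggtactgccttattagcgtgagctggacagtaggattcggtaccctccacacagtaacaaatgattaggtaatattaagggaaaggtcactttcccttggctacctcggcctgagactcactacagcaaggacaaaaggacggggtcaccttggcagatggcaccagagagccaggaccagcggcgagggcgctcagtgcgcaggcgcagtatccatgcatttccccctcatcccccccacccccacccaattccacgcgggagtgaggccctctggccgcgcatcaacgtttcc
Pkm (chr9:59656326-59656625, plus strand): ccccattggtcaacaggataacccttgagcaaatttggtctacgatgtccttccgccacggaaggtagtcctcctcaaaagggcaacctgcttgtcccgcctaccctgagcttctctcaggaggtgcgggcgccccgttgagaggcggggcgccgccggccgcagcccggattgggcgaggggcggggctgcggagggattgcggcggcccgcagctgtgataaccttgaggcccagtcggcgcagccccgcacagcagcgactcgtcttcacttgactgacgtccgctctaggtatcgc
Pkm (chr9:59656977-59657276, plus strand): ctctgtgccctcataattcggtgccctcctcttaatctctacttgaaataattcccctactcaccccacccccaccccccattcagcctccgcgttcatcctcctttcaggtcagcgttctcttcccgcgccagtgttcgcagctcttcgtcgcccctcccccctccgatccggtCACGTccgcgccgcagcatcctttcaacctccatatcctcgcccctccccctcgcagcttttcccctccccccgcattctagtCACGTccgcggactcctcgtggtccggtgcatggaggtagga
The upstream Ldha window holds 5 matches and the downstream one 0, the Hk2 and Pgk1 windows hold 2 each, the Pkm windows 0 and 2, the Hk3 and Slc2a1 windows 1 each, and the Eno1 window 0. Windows were found for 9 of the 10 members, 14 windows in all, and 7 of these 9 members had ACGTG in at least 1 window. The letters occur in 19.6% of the 32851 windows of the table, and in 8 of the 14 windows of the members. The other core, GCGTG, occurs in 32.4% of all windows and in 8 of the 14 windows of the members. Eno1 and Pfkfb4 had no ACGTG in their windows. A match describes letters in a window and is no evidence of binding.

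Gene positions are given in GRCm38. All values are the authors' deposited scaled abundances, which behave as amounts per transcript length, so levels of different genes can be set side by side. In control marrow the order was Pkm (mean 331 ± 15.8, SD, n = 3), Eno1 (239 ± 10.9), Ldha (192 ± 4.75), Pgk1 (132 ± 4.41), Hk3 (95.2 ± 5.06), Slc2a3 (54.4 ± 3.36), Pfkfb4 (36.1 ± 1.34), Hk2 (14.8 ± 1.91), Pfkfb3 (13.1 ± 0.888) and Slc2a1 (6.54 ± 0.481). The same order of means was found in all 5 marrow groups. Among these neighbours only Hk2 and Pfkfb3 had control libraries that overlapped, with Hk2 between 12.9 and 16.7 and Pfkfb3 between 12.1 and 13.8. In control spleen the order began with Ldha (203 ± 17.8, n = 4), Eno1 (180 ± 23.5) and Pkm (164 ± 24.3), whose libraries overlapped one another, followed by Pgk1 (96.9 ± 8.15). By their means, Slc2a1 (18.3 ± 2.17) and Pfkfb3 (17.6 ± 4.32) stood above Slc2a3 (11.2 ± 1.76), Hk3 (7.73 ± 1.36), Pfkfb4 (6.08 ± 1.27) and Hk2 (4.57 ± 1.18). From Slc2a1 to Hk2, the control libraries of neighbours in this order overlapped. Genes and retrogene copies of near-identical sequence, such as Eno1b, Pgk1-rs7 and Pgk2, stayed below 1 in every library, the highest being Eno1b at 0.73.

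With 1 in a 1200-base transcript worth an estimated 6.24 to 61.7 reads per library, values below 1 rest on few reads in the shallowest libraries. Length slopes and haemoglobin shares ranged more widely over the spleen libraries than over the marrow libraries. 5 spleen libraries stood apart, D6, D7, D9 and D10 after 10 defeats and D2 after rest: their values fell with transcript length by 0.60 to 0.74 on the log2 scale per doubling of length relative to controls, against slopes from -0.41 to 0.15 in the other 13 spleen libraries. Their haemoglobin share was 45.4 to 58.8% of all values, against 1.74 to 39.8% in the others. In marrow the length slopes lay between -0.17 and 0.03, and the haemoglobin share between 11.1 and 45.6%. Calls of the 10 genes in 10-defeat and rested spleen are given with and without these 5 libraries. Cell markers, pathway lists, ratios and correlations in spleen are given only with them. The labelled tissues fitted their markers: neutrophil markers such as S100a8 were lower in control spleen than in control marrow for 12 of 12 genes, and T cell markers were higher for 11 of 11.

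**Figure D1:**
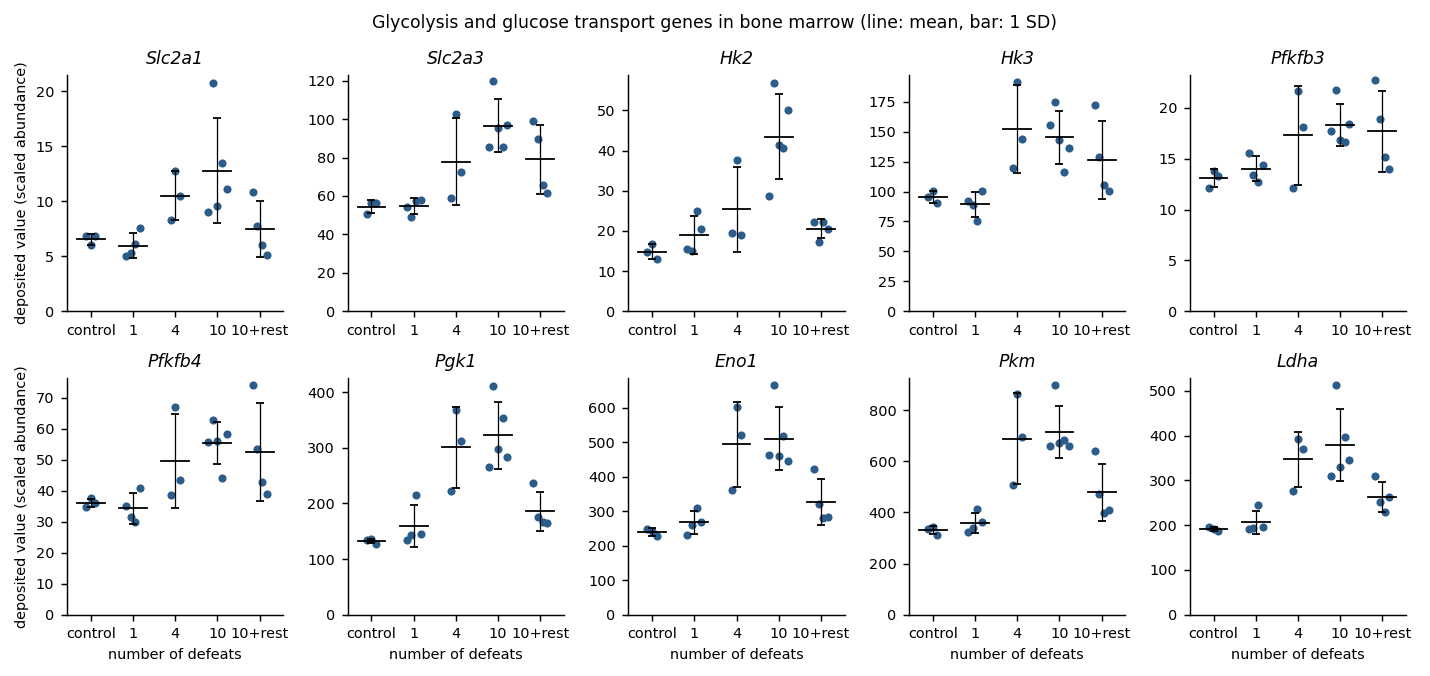
Deposited values of the 10 genes in each marrow library by group (linear axes from 0); points are libraries, lines are means and bars are 1 SD. All 5 libraries after 10 defeats lie above all 3 controls for each of the 10 genes, and the rested libraries lie lower again for Hk2, Pgk1, Eno1, Pkm and Ldha.

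In marrow the number of members that rose against the same 3 controls was 0 of 10 after 1 defeat, 5 of 10 after 4 defeats and 10 of 10 after 10 defeats. After 1 defeat, limma called 0 of the 10 members at an adjusted p under 0.05, and 0.00804% of all 12442 genes tested, with 535 genes at an unadjusted p under 0.05. None of the members was separated from the controls, and fitted differences ran from -0.12 for Slc2a1 to 0.31 for Hk2. After 4 defeats the called genes were Pgk1, Eno1, Pkm, Ldha and Hk3, against 7.07% of all genes called higher, and 9 of 10 members, all but Pfkfb3, lay above the controls without overlap, as did 15.4% of all genes. After 10 defeats 10 of 10 members were called higher and lay above the controls without overlap, against 17.5% of all genes called higher and 19.4% of all genes above without overlap. The median difference of the members was 0.66 after 4 defeats and 0.88 after 10 defeats, and that of all genes was -0.11 and -0.13.

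**Figure D2:**
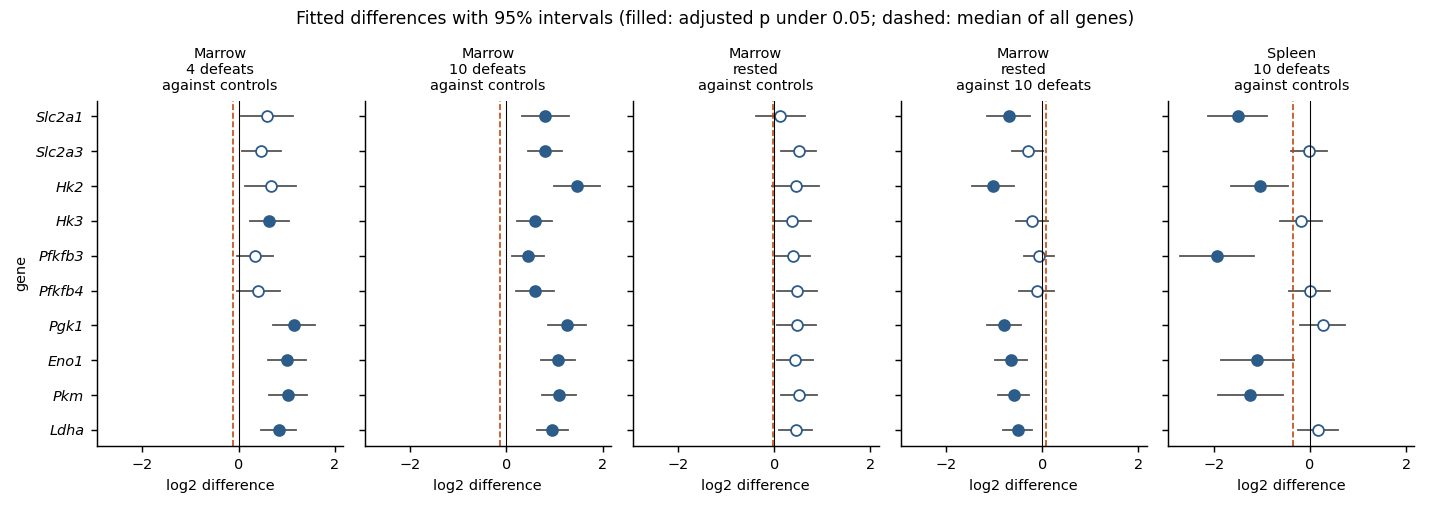
Fitted log2 differences of the 10 genes in 5 comparisons (horizontal axis; bars are 95% intervals from limma; filled points have an adjusted p under 0.05; the dashed line is the median of all genes tested). After 10 defeats all 10 genes are to the right of 0 in marrow, while 5 of 10 are called lower in spleen, near the 41.9% of all genes called lower there.

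Slc2a1 (ENSMUSG00000028645, chr4:119108711-119137983, plus strand), the transporter GLUT1 of many cell types, was the lowest of the 10 in marrow. It measured 6.83, 5.98 and 6.81 in controls C1, C2 and C4, 8.27, 12.7 and 10.5 after 4 defeats in D11, D12 and D14, and 9.02, 20.7, 9.58, 13.5 and 11.1 after 10 defeats in D5, D6, D7, D9 and D10. Every library after 4 or 10 defeats was above every control, and D6 stood above the rest of its group. The difference after 10 defeats was 0.81 ± 0.23 (log2, SE; limma adjusted p = 0.00975), and that after 4 defeats, 0.59 ± 0.26, did not pass (adjusted p = 0.11).

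Slc2a3 (ENSMUSG00000003153, chr6:122727809-122801640, minus strand), the high-affinity transporter GLUT3 of neurons and leukocytes, was the more abundant transporter in every marrow library. Its controls measured 50.5, 56.2 and 56.4, its 4-defeat libraries 58.7, 103 and 72.4, and its 10-defeat libraries 85.4, 119.6, 95.3, 85.7 and 96.9. The 3 controls lay close together and below all libraries of both groups, with D11 near them. Slc2a3 rose by 0.81 ± 0.17 after 10 defeats (adjusted p = 0.00151), the same size as Slc2a1, and the ratio of Slc2a3 to Slc2a1 was 7.4 to 9.4 in controls and 5.77 to 9.95 after 10 defeats.

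Hk2 (ENSMUSG00000000628, chr6:82725025-82774454, minus strand), the inducible hexokinase that docks on mitochondria, had the largest difference of the 10 genes after 10 defeats. It measured 14.8, 16.7 and 12.9 in controls, 19.4, 37.6 and 19.1 after 4 defeats, and 28.8, 56.7, 41.4, 40.5 and 50.1 after 10 defeats. The 10-defeat libraries began well above the highest control, and only D12 of the 4-defeat libraries reached their range. The rise after 10 defeats was 1.46 ± 0.23 (adjusted p = 0.000215), 2.93-fold in means, and the 4-defeat difference of 0.67 ± 0.25 did not pass (adjusted p = 0.0672). Hk3 (ENSMUSG00000025877, chr13:55005985-55021385, minus strand), the hexokinase typical of myeloid cells, measured 95.2, 100.3 and 90.1 in controls, 119.9, 192 and 144 after 4 defeats, and 155, 175, 143, 116 and 136 after 10 defeats. Its groups did not overlap either, but the step was smaller, 0.64 ± 0.19 after 4 defeats (adjusted p = 0.0291) and 0.59 ± 0.17 after 10 defeats (adjusted p = 0.0114). The call for Hk3 after 4 defeats was lost when any of C1, C2, C4, D12 or D14 was left out, with the value then between 0.46 and 0.68, and the call after 10 defeats was lost without C4 (0.55, adjusted p = 0.0505). With quantile normalization Hk3 was called in neither comparison, at 0.49 (adjusted p = 0.0882) and 0.37 (adjusted p = 0.0953), and with equal totals after haemoglobin removal the 4-defeat value was 0.33 (adjusted p = 0.146). The 4-defeat call was made in 6 of 14 settings. The ratio of Hk3 to Hk2 was 5.99 to 6.97 in the controls and 2.72 to 5.40 after 10 defeats, and these ranges did not overlap.

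Pfkfb3 (ENSMUSG00000026773, chr2:11471433-11554077, minus strand), the isoform whose kinase activity far outweighs its phosphatase activity, had the smallest difference after 10 defeats. It measured 12.1, 13.8 and 13.3 in controls, 12.1, 21.6 and 18.2 after 4 defeats, and 17.7, 21.7, 16.8, 16.6 and 18.4 after 10 defeats. The 4-defeat libraries overlapped the controls, and the 10-defeat libraries were above them. The rise of 0.45 ± 0.16 after 10 defeats (adjusted p = 0.0301) was lost without C1, C2, C4 or D6, with the value then between 0.39 and 0.49. Pfkfb4 (ENSMUSG00000025648, chr9:108991778-109032228, plus strand), an isoform with both activities, measured 34.8, 37.5 and 35.9 in controls and 55.6, 62.6, 55.9, 44.1 and 58.2 after 10 defeats. All 5 exceeded the controls, D9 by the least, and the difference was 0.59 ± 0.19 (adjusted p = 0.0175), with no call without C1 (adjusted p = 0.055) or C4 (adjusted p = 0.054).

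Pgk1, Eno1 and Pkm, which act in the ATP-yielding lower part of the pathway, were called after both 4 and 10 defeats. Pgk1 (ENSMUSG00000062070, chrX:106187100-106203699, plus strand), the first enzyme of glycolysis to make ATP, measured 133, 136 and 128 in controls, 223, 368 and 313 after 4 defeats, and 265, 412, 299, 354 and 283 after 10 defeats. No 4-defeat or 10-defeat library came near the controls, and the difference was already 1.15 ± 0.21 after 4 defeats (adjusted p = 0.00318) and 1.26 ± 0.18 after 10 defeats (adjusted p = 0.000163). Pkm (ENSMUSG00000032294, chr9:59656368-59679375, plus strand), whose gene gives alternatively spliced forms of pyruvate kinase, measured 335, 344 and 313 in controls, 508, 866 and 695 after 4 defeats, and 662, 899, 671, 685 and 659 after 10 defeats. Apart from D6 the 10-defeat libraries were within a narrow band, and the ratio of means to controls was 2.16. Pkm rose by 1.03 ± 0.19 after 4 defeats (adjusted p = 0.00332) and by 1.10 ± 0.17 after 10 defeats (adjusted p = 0.000204). Eno1 (ENSMUSG00000063524, chr4:150236721-150248879, plus strand), which makes phosphoenolpyruvate, went from 227 to 247 in controls to 361 to 603 after 4 defeats and 446 to 665 after 10 defeats, a rise of 1.01 ± 0.19 (adjusted p = 0.00372) and 1.08 ± 0.17 (adjusted p = 0.000235).

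Ldha (ENSMUSG00000063229, chr7:46841475-46855627, plus strand), which makes lactate from pyruvate and regenerates NAD+, measured 197, 192 and 187 in controls, 277, 393 and 371 after 4 defeats, and 309.6, 513, 329.8, 397 and 346 after 10 defeats. Its marrow controls had the smallest relative spread of the 10 genes (coefficient of variation 2.47%), and all libraries of both defeat groups were above them. Ldha rose by 0.84 ± 0.17 after 4 defeats (adjusted p = 0.00515) and 0.95 ± 0.15 after 10 defeats (adjusted p = 0.000271). The ratio of Pkm to Ldha overlapped between controls (1.67 to 1.79) and 10-defeat marrow (1.72 to 2.14).

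In 3 of the 4 stressed marrow groups 1 library held the highest value of all 10 members: D12 after 4 defeats, D6 after 10 defeats and D1 after rest. These 3 libraries also had the lowest haemoglobin share of their groups, 15.2, 11.1 and 16.1% of all values. In the 4-defeat group D11, with 40.0% haemoglobin, held the lowest value of 9 of the 10 members. Haemoglobin was 38.7 to 44.3% in the controls and 11.1 to 26.8% after 10 defeats. When the libraries were scaled to equal totals after haemoglobin was removed, 6 of 10 members were still called higher after 10 defeats, Hk2, Pgk1, Eno1, Pkm, Ldha and Slc2a3. The median of all genes moved to -0.53 under that scaling and that of the members to 0.42, and calls over all genes split into 605 higher and 7911 lower, against 2177 and 3517 in the fit reported here and 2989 and 2422 with median-ratio rescaling. Slc2a1 then had 0.37, Hk3 0.10, Pfkfb4 0.11 and Pfkfb3 -0.01, and none of these 4 passed. Leaving out D11 raised the number called after 4 defeats from 5 to 8, by adding Hk2, Slc2a3 and Pfkfb3.

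Markers of several cell types moved with the members in marrow. After 10 defeats 11 of 12 mature neutrophil markers rose (median 1.27), as did 6 of 7 early granule genes (0.94) and 5 of 8 monocyte markers (0.75), while 9 of 9 B cell markers (-2.85), 9 of 11 T cell markers (-1.03) and 10 of 12 erythroid markers (-1.03) fell. The summed level of the 12 neutrophil markers ranged from 59127 to 68423 in controls and from 141571 to 266255 after 10 defeats, without overlap, and none of these markers was at 0 in all libraries of either group. After 4 defeats 6 of 12 neutrophil markers rose. The part of these cell types in the change of the glycolysis genes was not tested.

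After 1 week of rest all 10 fitted differences from 10 defeats were below 0, from -0.06 to -1.02, and 6 passed. Limma called 6 of 10 lower, Hk2 (-1.02 ± 0.21, adjusted p = 0.00462), Pgk1 (-0.79 ± 0.17, 0.00598), Slc2a1 (-0.69 ± 0.21, 0.0295), Eno1 (-0.65 ± 0.16, 0.0102), Pkm (-0.59 ± 0.15, 0.0141) and Ldha (-0.51 ± 0.14, 0.0185), against 7.91% of all genes. The other 4 did not pass, and a difference between the 6 and the 4 was not tested: Slc2a3 -0.30 (95% interval -0.63 to 0.02), Hk3 -0.22 (-0.55 to 0.12), Pfkfb4 -0.11 (-0.48 to 0.25) and Pfkfb3 -0.06 (-0.37 to 0.25). Rested Hk2 measured 22.3, 17.2, 22.2 and 20.4 in D1, D2, D3 and D8, and rested Pgk1 238, 175, 167 and 164. All 4 libraries were below every 10-defeat library for both genes, as they were for Eno1, Pkm and Ldha, and as were 5.39% of all genes. Rested Pfkfb4 measured 74.2, 53.5, 42.9 and 38.9, so that D1 was above and D3 and D8 were below every 10-defeat library. The count of called members was 3 without rested D3, where Slc2a1, Pkm and Ldha did not pass (adjusted p = 0.0847, 0.0511 and 0.0619), and Ldha did not pass without rested D2 either. Slc2a1 was called in 9 of 17 settings and was also lost without 10-defeat D6 (-0.51) or D9, without rested D2 or D8, with no filter on low values and with the 2 groups fitted alone. The count was also 3 with quantile normalization or with equal totals.

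Against controls, 0 of the 10 members were called after rest, and 0% of all 12442 genes, while 1768 genes had an unadjusted p under 0.05, 7 of the 10 members among them. All 10 fitted differences were above 0, from 0.12 for Slc2a1 to 0.51 for Pkm (adjusted p = 0.226), with a median of 0.44 against -0.02 for all genes, and 46.5% of all genes were above 0. In 9 of 10 members, all but Slc2a1, the 4 rested libraries lay above the 3 controls without overlap, which 9.73% of all genes did. Rested Ldha measured 309, 251, 229.8 and 263 against controls of at most 197, and rested Slc2a3 measured 98.9, 89.6, 66.0 and 61.5 against controls of at most 56.4. D1 was the highest rested library for all 10 members. The comparisons of rested marrow with controls and with 10 defeats share the rested libraries.

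Other genes of glucose metabolism were taken from pathway lists. Of 24 other glycolysis genes 19 were tested in marrow, and after 10 defeats 7 rose and 5 fell. Those that rose with the smallest p were Aldoa (aldolase, 282 in controls and 620 after 10 defeats, 1.12 ± 0.17, adjusted p = 0.000179), Gapdh (846 and 1895, 1.15 ± 0.17), Gpi1 (413 and 847, 1.02 ± 0.17) and Pgam1 (129 and 247, 0.91 ± 0.18). The 5 that fell are named here although they are not among the 4 with the smallest p, a choice made after their values were seen: Pklr, the liver and red cell pyruvate kinase, went from 15.1 to 4.93 (-1.52 ± 0.31), and Bpgm, which makes the haemoglobin ligand bisphosphoglycerate in red cells, went from 531 to 287 (-0.95 ± 0.33). Pfkm (-1.06 ± 0.25), Pfkfb2 (-0.86 ± 0.23) and Hk1 (-0.40 ± 0.11) fell as well. Of 10 tested carriers 2 rose and 3 fell, near the 17.5% and 28.3% of all genes: the lactate exporter gene Slc16a3 went from 32.1 to 76.3 (1.21 ± 0.21, adjusted p = 0.000386), and Slc16a1, Slc2a8 and the insulin-responsive transporter gene Slc2a4 fell.

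In the pentose phosphate pathway, which makes NADPH and ribose, 6 of 8 tested genes rose and none fell after 10 defeats, among them Tkt (328 to 691, 1.06 ± 0.15), Taldo1 (399 to 628, 0.65 ± 0.10), Pgd (189 to 382, 1.00 ± 0.17) and G6pdx (99.7 to 255, 1.29 ± 0.29). In glycogen metabolism 9 of 14 rose and 3 fell, with the glycogen primer Gyg from 39.3 to 116 (1.50 ± 0.23), the phosphatase targeting subunits Ppp1r3b (5.66 to 14.3) and Ppp1r3d (4.26 to 12.8), and Phka1 lower (1.66 to 0.688). After rest 4 of 8 pentose phosphate genes fell and none rose, and 5 of 14 glycogen genes fell and 1 rose, against 7.91% of all genes called lower. At the entry of pyruvate into mitochondria 3 of 13 rose and 3 fell, close to the shares of all genes, with Mpc2 up (66.1 to 105) and Pcx, Pdk2 and Pdk1 down. Of 18 tested genes of the HIF system and its other targets 8 rose and 4 fell, led by Ndrg1 (18.6 to 29.5, 0.64 ± 0.11), the oxygen sensor Egln3 (3.59 to 7.17, 0.80 ± 0.18) and Higd1a (23.9 to 36.0, 0.56 ± 0.13) upward and Kdm3a (14.8 to 8.90, -0.67 ± 0.15) downward. In gluconeogenesis 0 of 4 tested genes rose and 1, Pck2, fell.

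**Figure D3:**
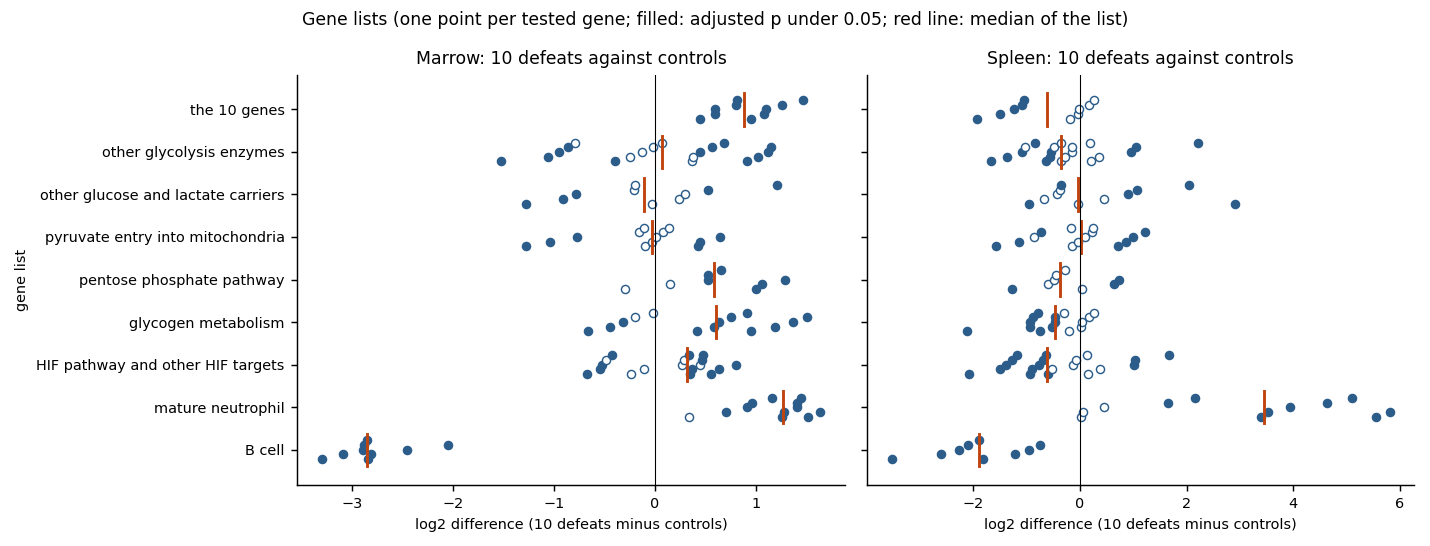
Log2 difference of each tested gene (10 defeats minus controls) by gene list in marrow and in spleen; filled points have an adjusted p under 0.05 and the red line is the median of the list. In marrow the 10 genes, the pentose phosphate and the glycogen lists lie mostly to the right of 0, and in spleen the glycogen and HIF lists lie mostly to the left. The median of all genes tested was -0.13 in marrow and -0.36 in spleen. The spleen panel includes the libraries that stand apart in length slope.

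Over the 19 marrow libraries the genes most like Pgk1, Eno1, Pkm and Ldha in log2 value included other members or pathway neighbours. This is a description over libraries that share the group differences. Eno1 was closest to Aldoa (Pearson r = 0.995, n = 19) and to Pkm (0.993), Pgk1 to Gyg (0.991) and Gapdh (0.988), and Ldha to Gapdh (0.985). Genes outside the pathway were nearly as close: Ifitm2 to Pkm (0.992), Atp6v0d1 to Pgk1 (0.987), and Scamp1 and Hp to Ldha (0.983 each). The upper members had other neighbours: Slc2a3 was closest to the myeloid integrin gene Itgam (0.982), Hk3 to the neutrophil histone deiminase gene Padi4 (0.970), Pfkfb4 to Pxn (0.982), Pfkfb3 to Dock5 (0.948), Hk2 to Cd52 (0.970) and Slc2a1 to Slc39a1 (0.968).

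Undefeated spleen and marrow differed in 6 of the 10 members. Against control marrow, control spleen had 1 of 10 members called higher and 5 called lower, with 27.1% and 19.2% of all 14513 genes. Slc2a1 was higher in spleen, with 18.4, 19.2, 15.2 and 20.2 against 5.98 to 6.83 in marrow (1.35 ± 0.30, adjusted p = 0.000474). Lower in spleen were Hk3 (7.73 against 95.2, -3.47 ± 0.21, adjusted p = 4.27e-14), Pfkfb4 (-2.40 ± 0.22), Slc2a3 (-2.19 ± 0.19), Hk2 (-1.53 ± 0.29) and Pkm (-1.02 ± 0.30). Eno1, Pgk1, Pfkfb3 and Ldha did not pass, with differences of -0.42, -0.45, 0.37 and 0.07. Without the 5 spleen libraries, which are not controls but share the variance estimate, 8 members were called, with Eno1 (adjusted p = 0.0489) and Pgk1 (adjusted p = 0.0487) added. Calls over all 14513 genes then went from 6712 to 8508. Pgk1 was also called with quantile normalization (-0.43, adjusted p = 0.0483) and with equal totals (-0.76, adjusted p = 0.000875). The ratio of Slc2a3 to Slc2a1 was 7.40 to 9.40 in control marrow and 0.48 to 0.71 in control spleen, and that of Pfkfb4 to Pfkfb3 was 2.71 to 2.88 and 0.252 to 0.548. Summed neutrophil markers were 59127 to 68423 in control marrow and 244 to 493.2 in control spleen, and their part in these differences was not tested.

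**Figure D4:**
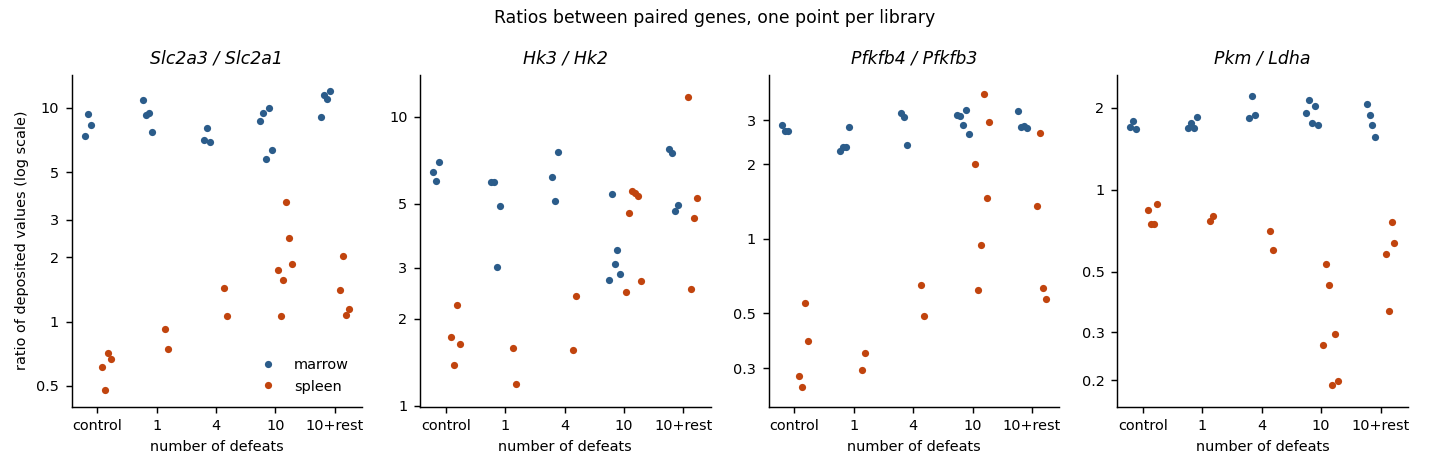
Ratio of deposited values for 4 pairs of genes in each library (log axis) by number of defeats, marrow in blue and spleen in red. Spleen controls lie far below marrow controls for the Slc2a3 to Slc2a1 and the Pfkfb4 to Pfkfb3 ratio, and the spleen libraries after 10 defeats lie above their controls in both.

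In spleen 0 of 10 members were called after 1 defeat (0.688% of all 13945 genes, 2104 genes at an unadjusted p under 0.05) and 0 after 4 defeats (0.043%, 1314 genes), with 2 libraries in each group. Without the 5 libraries the counts of members were 0 and 0, and 1740 and 227 genes were called in all. Ldha after 1 defeat measured 143 and 142, below all controls (191 to 229), with a difference of -0.50 ± 0.26 that did not pass (adjusted p = 0.386). Pkm (110 and 113) and Eno1 (126 and 135) were below all controls too; 16.9% of all genes were below without overlap in this comparison. Both 1-defeat libraries had a low haemoglobin share, 1.82 and 2.19%, and slopes against GC content of -0.44 and -0.41 on the log2 scale per 10 points, against -0.15 to 0.12 in controls. After 4 defeats D13 exceeded D14 in all 10 members, for example 173 against 102 for Pgk1 and 7.70 against 2.41 for Hk2. The haemoglobin share was 1.74% in D13 and 14.1% in D14. Summed tissue macrophage markers were 1013 (lowest) and 3666 (highest) in this group against 1214 to 1353 in controls. The part of haemoglobin and of these markers was not tested.

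After 10 defeats 5 of the 10 members that rose in marrow fell in spleen, and the 5 others did not pass. That count of 5 of 10 was near the share of all genes called lower, 41.9%. The median difference was -0.62 for the members and -0.36 for all genes. Pfkfb3 measured 18.5, 20.5, 11.3 and 20.3 in controls and 1.97, 2.93 and 9.97 (lowest, median, highest of 6) after 10 defeats, and fell by 1.93 on the log2 scale (SE 0.37, adjusted p = 0.000833). Slc2a1 measured 15.2 to 20.2 in controls and 3.45, 4.80 and 13.1, and fell by 1.50 (SE 0.29, adjusted p = 0.000926). For both genes every library was below every control, as for 25.8% of all genes, and so it was for Pkm, where controls of 144 to 194 stood against 33.8, 60.4 and 140 (-1.24 ± 0.32, adjusted p = 0.00493). Eno1 (-1.09 ± 0.36, adjusted p = 0.0161) and Hk2 (-1.05 ± 0.28, adjusted p = 0.00539) overlapped their controls in at least 1 library. With quantile normalization the Hk2 difference was -0.54 and was not called (adjusted p = 0.145). Ldha (0.17, 95% interval -0.25 to 0.58), Pgk1 (0.26, -0.22 to 0.74), Slc2a3 (-0.03, -0.41 to 0.35), Hk3 (-0.19, -0.62 to 0.24) and Pfkfb4 (-0.01, -0.43 to 0.41) did not pass.

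**Figure D5:**
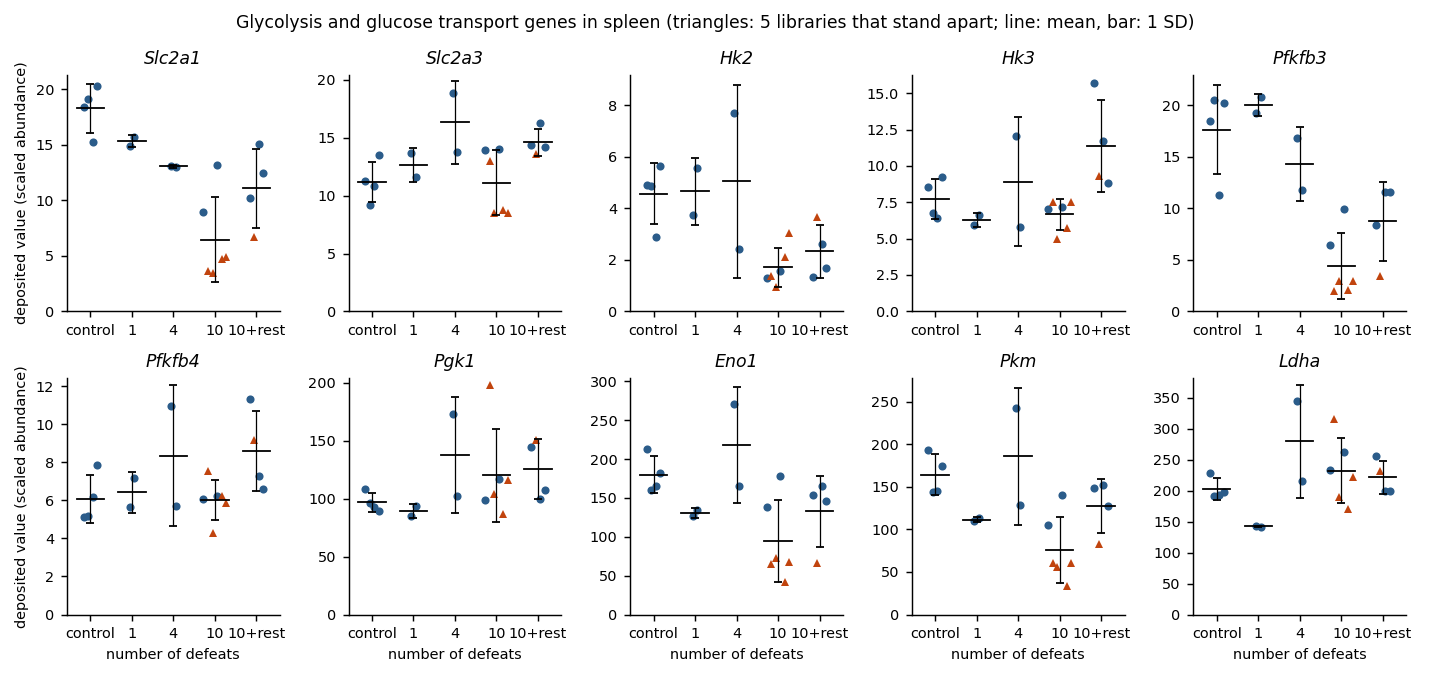
Deposited values of the 10 genes in each spleen library by group (linear axes from 0); triangles are the 5 libraries that stand apart in length slope, points the others, lines are means and bars 1 SD. For Eno1 and Pkm the 4 triangles after 10 defeats lie far below the 2 other libraries of that group, and for Hk2 both kinds lie together.

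The falls in spleen were largest in the libraries that stood apart. Eno1 was 41.3 to 73.3 in D6, D7, D9 and D10, 138 and 179 in D5 and D4, and 160 to 212 in controls. Pkm was 33.8 to 60.7 in the 4 libraries and 105 and 140 in the other 2, and Slc2a1 was 3.45 to 4.89 against 8.91 and 13.1. Hk2 was an exception, with 0.934 to 3.05 in the 4 libraries and 1.28 and 1.55 in the other 2, against 2.88 to 5.63 in controls. Without the 5 libraries 3 of 10 members were called lower after 10 defeats: Hk2 (-1.18 ± 0.34, adjusted p = 0.0279), Pfkfb3 (-1.01 ± 0.25, adjusted p = 0.0167) and Slc2a1 (-0.69 ± 0.18, adjusted p = 0.0214), while Pkm had -0.42 (adjusted p = 0.189) and Eno1 -0.19 (adjusted p = 0.506). In that fit 3220 of all 13945 genes were called in either direction. Leaving these libraries out and removing length and GC trends were both chosen after the data were seen. With length and GC trends removed from each library, all 5 calls remained, at -1.78 for Pfkfb3, -1.36 for Slc2a1, -1.09 for Pkm, -1.0 for Eno1 and -0.83 for Hk2. Median-ratio rescaling, which takes out the shift of -0.36 in the median of all genes, gave 4 members lower, Pfkfb3, Slc2a1, Pkm and Hk2, and 3 higher, Pgk1 at 0.73, Ldha at 0.65 and Slc2a3 at 0.41, and split all calls into 3900 higher and 3517 lower in place of 2348 and 5848. Slc2a3 had -0.03 before this rescaling, so that no direction is given for it.

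Cell markers in spleen moved strongly after 10 defeats. The marker and pathway values of this paragraph include the libraries that stood apart and are not given without them. Of 12 neutrophil markers 9 rose (median 3.46), and 11 of 12 erythroid (2.31) and 7 of 8 proliferation genes (1.69) rose, while 9 of 9 B cell, 10 of 11 T cell and 6 of 6 endothelial markers fell. Summed erythroid markers were 88798 to 204176 in controls and 79517 to 1239714 after 10 defeats, and summed endothelial markers 101.2 to 125 and 9.45 to 73.1. Their part in the change of Slc2a1, Pfkfb3, Hk2, Eno1 and Pkm was not tested. Among the other glycolysis genes 3 of 20 rose and 7 fell, near or below the 16.8% and 41.9% of all genes: Pklr went from 3.44 to 20.3 (2.21 ± 0.39, adjusted p = 0.000555), while Pfkp (19.6 to 6.12), Tigar (2.72 to 1.54) and Gpi1 (195 to 86.3) fell. Of 11 carriers 4 rose and 2 fell, with Bsg, the chaperone of the lactate carriers, up from 153 to 680, Slc2a4 from 1.40 to 18.9 and Slc16a1 from 16.9 to 36.4. In glycogen metabolism none of 15 rose and 9 fell, including Phkb (9.93 to 5.49) and Pygb (-2.12 ± 0.48), against the same 16.8% and 41.9% of all genes. Of 20 genes of the HIF list 3 rose and 11 fell, against the same shares. Those that fell included Epas1, which encodes a HIF alpha subunit (15.5 to 3.08, -2.09 ± 0.32), Ndrg1 (23.5 to 9.61) and Adm (3.25 to 0.947), while Mxi1 rose (9.84 to 21.3).

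After rest 0 of 10 members were called in spleen against controls (7.26% of all genes, 4095 genes at an unadjusted p under 0.05) and 0 against 10 defeats (0.567%, 3081 genes). Rested Slc2a1 measured 10.2, 6.69, 15.1 and 12.4 in D1, D2, D3 and D8, all below the controls as were 18.1% of all genes, with a difference of -0.72 ± 0.32 (adjusted p = 0.151). Without the 5 libraries that stood apart, Slc2a1 (-0.51 ± 0.16, adjusted p = 0.0489) and Hk2 (-0.95 ± 0.30, adjusted p = 0.0476) were called lower after rest than in controls. In that fit 2249 of all 13945 genes were called in either direction, against 1012 with all libraries. Rested Hk3, at 8.81 to 15.7, lay above all 6 libraries of 10 defeats (4.97 to 7.53), which 2.17% of all genes did, with a difference of 0.67 ± 0.20 that did not pass (adjusted p = 0.11). Without D4, 4 members were called higher after rest than after 10 defeats: Hk3 at 0.70, Pfkfb3 at 1.16, Pkm at 1.06 and Slc2a1 at 1.00. Calls over all 13945 genes then went from 79 to 2316. Without the 5 libraries 0 members and 5 genes in all were called in this comparison.

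The difference between the tissues was tested directly. For the change after 10 defeats 9 of 10 members had a more negative change in spleen than in marrow (27% of all 14513 genes called in that direction), from Hk2 (-2.51 ± 0.38, adjusted p = 8.35e-06) to Hk3 (-0.78 ± 0.27, adjusted p = 0.0216), and Pfkfb4 did not pass (-0.60 ± 0.28, adjusted p = 0.0781). Without the 5 spleen libraries 7 of 10 were called, all but Pfkfb4, Hk3 (-0.68, adjusted p = 0.0929) and Slc2a3 (-0.50, adjusted p = 0.128), with Hk2 at -2.65 and Slc2a1 at -1.51. Calls over all genes in either direction then went from 6249 to 4599. The count of members was 7 with quantile normalization, without Hk3 and Slc2a3, and 6 both with median-ratio rescaling, without Hk3, Ldha and Pgk1, and with equal totals, without Hk3, Ldha and Slc2a3. Over all genes the calls were 6165 with quantile normalization, 6027 with median-ratio rescaling and 4382 with equal totals. For the step from 10 defeats to rest 6 of 10 members had a more positive change in spleen (4.82% of all genes): Slc2a1 (1.48 ± 0.37), Pkm (1.44 ± 0.37), Hk2 (1.30 ± 0.36), Eno1 (1.23 ± 0.40), Hk3 (0.89 ± 0.26) and Pgk1 (0.89 ± 0.28), with adjusted p between 0.012 and 0.0471. Without the 5 libraries 2 remained, Hk2 (1.26, adjusted p = 0.04) and Pgk1 (0.90, adjusted p = 0.0389), while calls over all genes went from 1477 to 1927. Leaving out D6 of 10-defeat marrow, D3 or D8 of rested marrow, or D1 of rested spleen left 3 called. Eno1 was called in 10 and Pgk1 in 13 of 28 settings, and Slc2a1 in 26.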

How the data were processed

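Stranded poly(A) RNA libraries were prepared from marrow and spleen RNA with TruSeq Stranded mRNA reagents, per the labels' protocols. The deposited table holds 1 scaled abundance signal per gene and library, made by the authors; the submitters' processing notes name kallisto 0.46.1, sleuth and GRCm38, without their roles. The scaling behind the signal is unstated in these sources. Among genes with 1 annotated transcript, 65.2 to 81.5% of low values per library lay within 0.1 of a whole multiple of 1 read. Lengths beyond a 200-base fragment were used. The size of 1 read was itself chosen in each library to give the best match to whole multiples. On this basis the signal was read as an amount per length, and a value of 1 in a 1200-base transcript stood for an estimated 6.24 to 61.7 reads. Since the exact counts are unknown, no count model was used.

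Values were analysed as log2(value + 1) with limma 3.58.1 in R 4.3.3 (trend and robust variance), with 1 fit per tissue and 1 for both tissues. A gene was tested if it reached 1 in 3 or more marrow libraries or 2 or more spleen libraries, the size of the smallest group (2 in the joint fit). All 10 members passed. P-values were adjusted by Benjamini-Hochberg over all genes tested, with a threshold of 0.05; they measure the spread between these libraries, which may be technical. Fold changes on this scale understate changes of low genes. The script was tested on simulated data. Libraries of marrow and spleen with the same code were not treated as pairs, since the labels do not say that they share a mouse and 5 of 15 such pairs had a correlation over 0.1. This does not show that they are unpaired.

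The members and lists were chosen with earlier results of these data known. From each pathway list up to 4 called genes with the smallest adjusted p were named, with the stated exceptions, and for each member the genes of highest Pearson correlation. Promoter windows are from RefSeq, GRCm38.p6. Other normalizations, filters, pseudocounts and libraries left out were tried as alternatives.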

Additional observations from a re-analysis of the deposited data

Results flagged for a closer look

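In 6 of the 60 groups of libraries that could be examined (10 genes in the 6 groups of 4 to 6 libraries), 1 library lay far from the others, by the share of the group's range that separates it from its nearest neighbour. Chance flags about 1 in 20 groups. After 1 defeat, marrow D17 was far above the others for Ldha (share 0.923) and Pgk1 (share 0.851). Marrow D6 was far above the other 10-defeat libraries for Pkm (share 0.877), and spleen D6 for Pgk1 (share 0.642). Rested spleen D2, one of the 5 spleen libraries that stood apart in length slope, was far below for Eno1 (share 0.866), and spleen control C1 was far above for Ldha (share 0.835).

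The change after 10 defeats differed between the tissues, as spleen minus marrow on the log2 scale with limma, by -2.51 for Hk2, -2.38 for Pfkfb3, -2.34 for Pkm, -2.31 for Slc2a1, -2.17 for Eno1, -1.0 for Pgk1, -0.84 for Slc2a3 and -0.78 for both Hk3 and Ldha. The step from 10 defeats to rest differed by 1.48 for Slc2a1, 1.44 for Pkm, 1.30 for Hk2, 1.23 for Eno1 and 0.89 for both Hk3 and Pgk1.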

How the results depend on the processing

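Of the values of single members under alternatives, 2067 stayed on the same side of the threshold, 68 of them with a change of sign in a value that was not called, 99 lost a call, 32 gained one and 2 changed sign in a called value: Pfkfb3 in marrow after 10 defeats was -0.011 with equal totals without haemoglobin, and Slc2a3 in spleen after 10 defeats was 0.41 with median-ratio rescaling. The cause of these changes was not tested. The number of members called in marrow after 10 defeats went from 10 to 6 with equal totals, and after rest against 10 defeats from 6 to 3 with quantile normalization and to 3 with equal totals. In spleen it went from 0 to 1 after 1 defeat with the 2 groups fitted alone (Ldha, adjusted p = 0.0433), from 5 to 3 after 10 defeats without the 5 libraries, and from 0 to 2 after rest against controls with quantile normalization (Hk3 and Slc2a3, higher) and to 2 other members without the 5 libraries (Hk2 and Slc2a1, lower). For the tissue difference of the step to rest it went from 6 to 2 with quantile normalization, to 1 with equal totals and to 2 without the 5 libraries.

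Leaving out each library in turn gave 4 to 8 called members in marrow after 4 defeats, 7 to 10 after 10 defeats, 3 to 6 after rest against 10 defeats, 0 to 4 in spleen after rest against 10 defeats, 8 to 9 for the tissue difference after 10 defeats and 3 to 8 for that of the step to rest. It gave 5 in spleen after 10 defeats and 6 between control tissues, as in the fits reported. With the replicate code as a block, the counts between tissues stayed at 6, 9 and 6. Over all genes, calls in spleen without the 5 libraries went from 8196 to 3220 after 10 defeats and from 1012 to 2249 after rest against controls. In marrow with equal totals, calls went from 2493 to 4832 after 4 defeats and from 2700 to 6587 after rest against 10 defeats. For rested marrow against controls they went from 0 to 384 with the 2 groups fitted alone. Depth limits low values such as spleen Hk2, and groups of 2 spleen libraries limit the 1-defeat and 4-defeat comparisons.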

Other observations

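In spleen the genes most like a member over the 18 libraries differed from those in marrow, as a description over libraries that share group differences and length slopes. Pfkfb3 was closest to Iqgap1 (Pearson r = 0.995), Slc2a1 to Mrtfa (0.988), Eno1 to Prrc1 (0.981) and Pkm to Galns (0.978). Pgk1 (0.919) and Ldha (0.873) were both closest to P4hb, which encodes protein disulfide isomerase, and Hk3 to Pgam1 (0.845). Hk2 was closest to Fbn1 (0.893), Pfkfb4 to Itgam (0.866) and Slc2a3 to Cd33 (0.835).

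The balance of Pkm to Ldha in spleen was 0.749 to 0.886 in controls, 0.192 to 0.535 after 10 defeats and 0.360 to 0.759 after rest. The highest 10-defeat library was therefore below the lowest control, while rested libraries reached into the control range. The balance of Hk3 to Hk2 in spleen was 1.39 to 2.23 in controls and 2.47 to 5.53 after 10 defeats, in the opposite direction to marrow. These ratios were not tested.

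Other genes of glucose metabolism differed between the tissues of control mice. Against marrow, spleen had 0 of 8 pentose phosphate genes higher and 4 lower, and 2 of 15 glycogen genes higher and 7 lower. Of all genes, 27.1% were called higher and 19.2% lower in this comparison. Pygl, the liver-type glycogen phosphorylase, averaged 167 in marrow and 10.8 in spleen (-3.84 ± 0.23, limma adjusted p = 2.79e-14).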
